A study of Mus musculus with 4 samples.

Results

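Interferon-stimulated genes are genes whose transcription is switched on by interferons, and 41 of them, out of 22020 coding genes in the GENCODE vM21 annotation of mm10, were examined for open chromatin. They were chosen by name from the known interferon response, and no measured value of these libraries entered the rule. For each, the peaks within 1 kb of any annotated start site (promoter peaks) and the peaks elsewhere inside the gene were taken from the peak lists of an ATAC-seq experiment. ATAC-seq inserts sequencing adapters with a transposase, which reaches open chromatin more often than closed chromatin, so that a peak marks an accessible stretch of DNA.

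All cells were naive CD4+ T cells, low in CD44, high in CD62L and free of CD25, sorted from spleens of wild-type male C57BL/6 mice, aged 7 weeks by the labels (the study's methods give an age range that includes it). They were cultured for 48 h on plate-bound anti-CD3 (5 µg/ml) with soluble anti-CD28 (1 µg/ml), IL-2 at 10 ng/ml and TGF-β1 at 5 ng/ml, which steers them towards induced regulatory T cells (iTreg). The iTreg group had 2 libraries without further cytokine, and the iTreg+IL-4 group had 2 libraries with IL-4 at 15 ng/ml. The study describes the libraries of a group as independent biological samples, each pooled, no interferon was added to either group, and the comparison asks whether IL-4 altered accessibility at these genes.

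Type I interferons bind a receptor whose kinases activate STAT2, which joins IRF9 in the complex ISGF3. ISGF3 binds a DNA element called the interferon-stimulated response element (ISRE), while interferon gamma acts mainly through the gamma-activated site (GAS). The genes so induced encode sensors of viral nucleic acid, enzymes and scaffold proteins that block viral replication, GTPases that attack the compartments of intracellular pathogens, and the machinery of antigen presentation. Several of them, among them Irf7, Irf9 and Stat2, encode parts of the pathway itself.

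The lists held 77064 and 56645 peaks in iTreg replicates 1 and 2 and 78670 and 67743 in iTreg+IL-4 replicates 1 and 2. The number of reads behind each list is unknown, and the second iTreg list was the shortest, with a median −log10 q of 15.2 against 22.1 to 25.1 in the other lists. Peak values were not scaled between libraries, so each peak is described by its rank, which is the percent of peaks in its own list with a higher −log10 q (a low rank is a strong peak). Such a rank also depends on the length of the list, since a longer list adds weak peaks below a given promoter. All 7 T cell marker genes examined (Cd3e, Cd3g, Cd4, Cd28, Thy1, Lck and Cd5) had a promoter peak in every library. Their ranks went from 5.61 at Cd28 to 88.0 at Cd4, whose peak ranked no better than 65.5 in any library. Of the marker lists of other cells, 1 of 4 B cell genes (Pax5), 1 of 5 myeloid genes (Cd14), 2 of 3 plasmacytoid dendritic cell genes (Ccr9 and Tcf4), 0 of 3 NK cell genes and 1 of 2 CD8 genes (Cd8b1) had a promoter peak in all 4 libraries, while Cd79a, Csf1r, Lyz2, Adgre1, Siglech and Ncr1 were among those with none in any. By rank the lists overlapped, with Pax5 between 12.3 and 18.1, Tcf4 between 5.30 and 8.53, and Cd14, Ccr9 and Cd8b1 between 31.5 and 64.5.

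The promoters of these genes carried the ISRE more often than those of other genes. The core GAAANNGAAA was searched on both strands from 250 bases upstream to 50 bases downstream of every start site, and 28 of the 41 genes (68.3%) held at least 1 match, against 10.0% of all coding genes. The following stretches show the match (capitals) in the 8 genes with the best-ranked promoter peaks among those with a match inside a peak, with the match common to Tap1 and Psmb9 shown once. Each is given 5′ to 3′ on the strand of its gene, from the RefSeq copy of GRCm38 (mm10).
Stat2 (chr10:128270246-128270315, forward strand): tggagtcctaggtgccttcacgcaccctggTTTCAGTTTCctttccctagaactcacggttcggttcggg
Psmb9 (chr17:34187688-34187717, reverse strand): agaggaagaaGAAACCGAAAgccgacctcg
Zbp1 (chr2:173218929-173218998, reverse strand): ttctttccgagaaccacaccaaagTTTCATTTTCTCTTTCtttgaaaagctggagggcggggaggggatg
Igtp (chr11:58199512-58199541, forward strand): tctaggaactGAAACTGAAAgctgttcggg
Irgm2 (chr11:58214883-58214952, forward strand): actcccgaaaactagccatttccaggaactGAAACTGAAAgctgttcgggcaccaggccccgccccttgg
Bst2 (chr8:71537557-71537626, reverse strand): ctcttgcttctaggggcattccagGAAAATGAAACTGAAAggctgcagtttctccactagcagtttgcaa
Rsad2 (chr12:26456533-26456602, reverse strand): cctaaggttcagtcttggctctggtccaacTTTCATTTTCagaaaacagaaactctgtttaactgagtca
Ifit1 (chr19:34640774-34640843, forward strand): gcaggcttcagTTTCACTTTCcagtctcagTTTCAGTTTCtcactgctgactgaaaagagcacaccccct

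Zbp1, Bst2 and Ifit1 each show 2 matches in this stretch, and in Zbp1 and Bst2 the matches overlap. The stretches of Igtp and Irgm2, neighbouring genes of the immunity-related GTPase family, share a run of at least 27 identical bases that includes the match, although they lie at different start sites. The run reaches the end of the stretch printed for Igtp, so its full length is not given. The stretch printed for Psmb9 overlaps an annotated exon, and its match lies 62 bases downstream of the nearest start site of Psmb9. The same bases lie 26 bases upstream of the nearest start site of Tap1, which is transcribed the other way. The match of Stat2 lies 279 bases upstream of its nearest start site, outside the window used for the count. All matches shown in the 8 stretches lay inside a peak in all 4 libraries.

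In the 28 genes with a match in the window, the match nearest to a start site was centred at a median of -37.5 bases, from -160 in Mx2 to 7 in Ddx58, and it lay upstream of the start site in 25 of them. In 24 of the 28 this match was covered by a peak in all 4 libraries. The exceptions were Oas1a, Oas2 and Gbp3, each covered in 3 libraries, and Rsad2, whose nearest match, at a start site inside the gene, was covered in none. Counting all matches in the windows, with overlapping matches counted separately, 42 of 51 were inside a peak in every library, 5 in 3 libraries and 4 in none, and 18 genes held 2 or more.

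**Figure D1:**
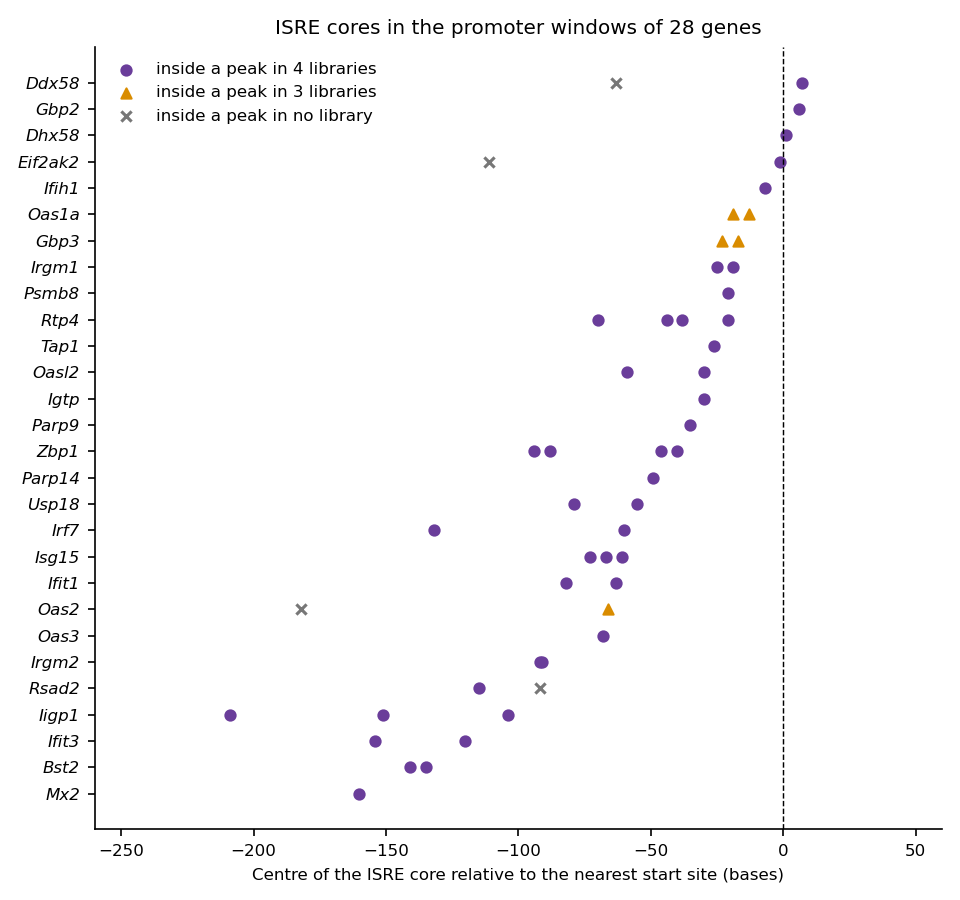
Position of each ISRE core (centre, in bases from the nearest start site, negative values upstream) in the 28 interferon-stimulated genes that hold one between 250 bases upstream and 50 bases downstream. Circles, triangles and crosses mark matches inside a peak in 4, 3 and no libraries, and most nearest matches lie within 100 bases upstream of the start site and inside a peak in all 4 libraries.

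The share with a match depends on the window but stayed well above that of all coding genes. From 500 bases upstream to 100 downstream it was 78.0% (32 genes) against 17.8%, and inside the best-ranked promoter peak it was 77.5% (31 of 40) against 9.44%. The genes had a median of 4 start sites against 3 for all coding genes, and more start sites mean more bases searched. With the 5′ end of the gene record as the only start site, 20 of 41 (48.8%) held a match against 3.57%. Among coding genes with a promoter peak in all 4 libraries the share was 11.7%, and among the 39 interferon-stimulated genes of that kind it was 69.2%.

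The GAS core TTCNNNGAA, which can share bases with an ISRE core, was found in 17 of 41 genes (41.5%), against 20.4% of all coding genes. In the wider window it was found in 20 genes (48.8%) against 34.9%, at the 5′ end alone in 10 (24.4%) against 8.39%, and inside the best-ranked promoter peak in 17 of 40 (42.5%) against 19.2%. A match is a match of letters only and was not tested for binding. At the 5′ end of the gene record alone, the promoter windows of these genes had a median GC content of 53% against 55% for all coding genes and 59.3% for coding genes with a promoter peak in all libraries. Their median ratio of observed to expected CpG was 0.359, against 0.522 and 0.732.

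**Figure D2:**
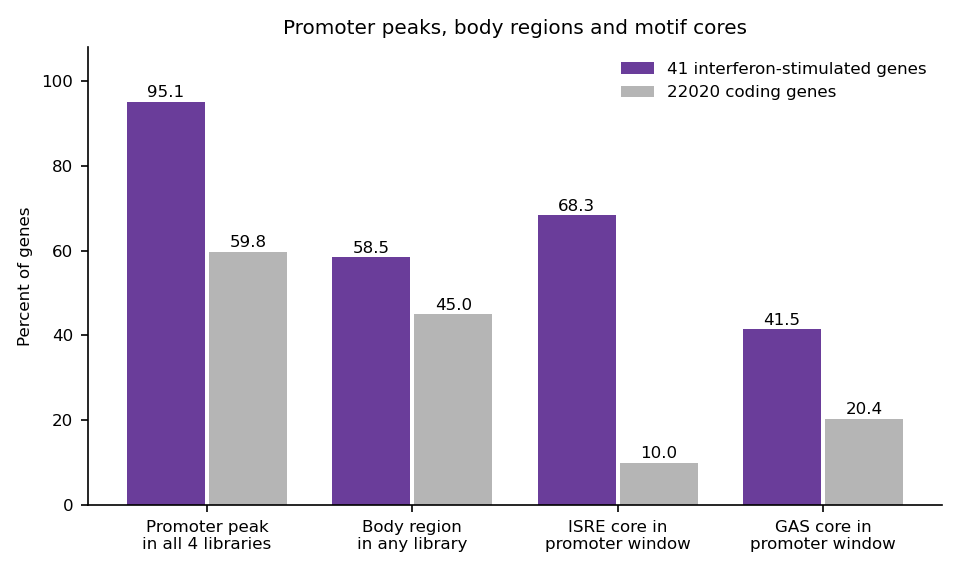
Percent of the 41 interferon-stimulated genes (purple) and of all 22020 coding genes (grey) with a promoter peak in all 4 libraries, a region called in the gene body in any library, an ISRE core or a GAS core in the promoter window. The interferon-stimulated genes stand above all coding genes in each pair of bars, from 58.5% against 45.0% for body regions to 68.3% against 10.0% for the ISRE core.

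Nearly all of these promoters were open with and without IL-4. A promoter peak was called for 40 and 39 of the 41 genes in the iTreg libraries (39.5 ± 0.707, SD, n = 2) and for 40 and 40 in the iTreg+IL-4 libraries (40 ± 0, n = 2). In all 4 libraries it was called for 39 genes (95.1%), against 59.8% of all coding genes. None of the 41 had a promoter peak in both iTreg+IL-4 libraries and neither iTreg library, and none the reverse, patterns that held for 0.345% and 0.0681% of all coding genes (76 and 15 genes). With 41 genes, counts of 0 are not distinguishable from those shares.

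The 2 genes not called throughout were Ifi44 and Oas2. Ifi44, whose product is an interferon-induced cytoplasmic protein, had no promoter peak in any library, as did 33.8% of all coding genes. Its nearest peaks lay 1069 and 1083 bases from a start site in replicates 1 of iTreg and iTreg+IL-4, just outside the 1 kb limit, and 70459 and 24997 bases away in replicates 2. Oas2 encodes an enzyme that senses double-stranded RNA and makes the oligoadenylates that activate RNase L. Its promoter peak ranked 72.0 in iTreg replicate 1, was not called in iTreg replicate 2, and ranked 70.9 and 52.3 with IL-4. In the second iTreg list the nearest peak was 3698 bases away in an intron of the gene.

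Where called, the promoter peaks were of middling strength among promoters. Over the 39 genes the median rank was 14.1 and 13.3 in the iTreg libraries and 12.3 and 12.9 in the iTreg+IL-4 libraries, while the medians of coding genes with a promoter peak in all 4 libraries were 9.74 and 12.1, and 9.80 and 10.3. In every library the interferon-stimulated genes thus had the higher median rank, which means the weaker median peak. Set among all coding genes with a promoter peak in the same library, the median of these genes stood behind 58.9%, 52.9%, 54.2% and 55.5% of them.

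The peaks sat at the start sites. Their median width was 812.5 to 867 bases, and in the 4 libraries the best-ranked peak covered a start site in 39, 37, 37 and 38 genes and was centred within 250 bases of one in 33 or 34. For each of the 39 genes the best-ranked peaks of the 4 libraries shared at least 1 base. The 40 genes with a promoter peak rested on 37 distinct regions, since Tap1 and Psmb9, Parp9 and Dtx3l, and Igtp and Irgm2 each share their best-ranked peak. Both members of such a pair therefore carry the same values and count as 1 measurement.

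**Figure D3:**
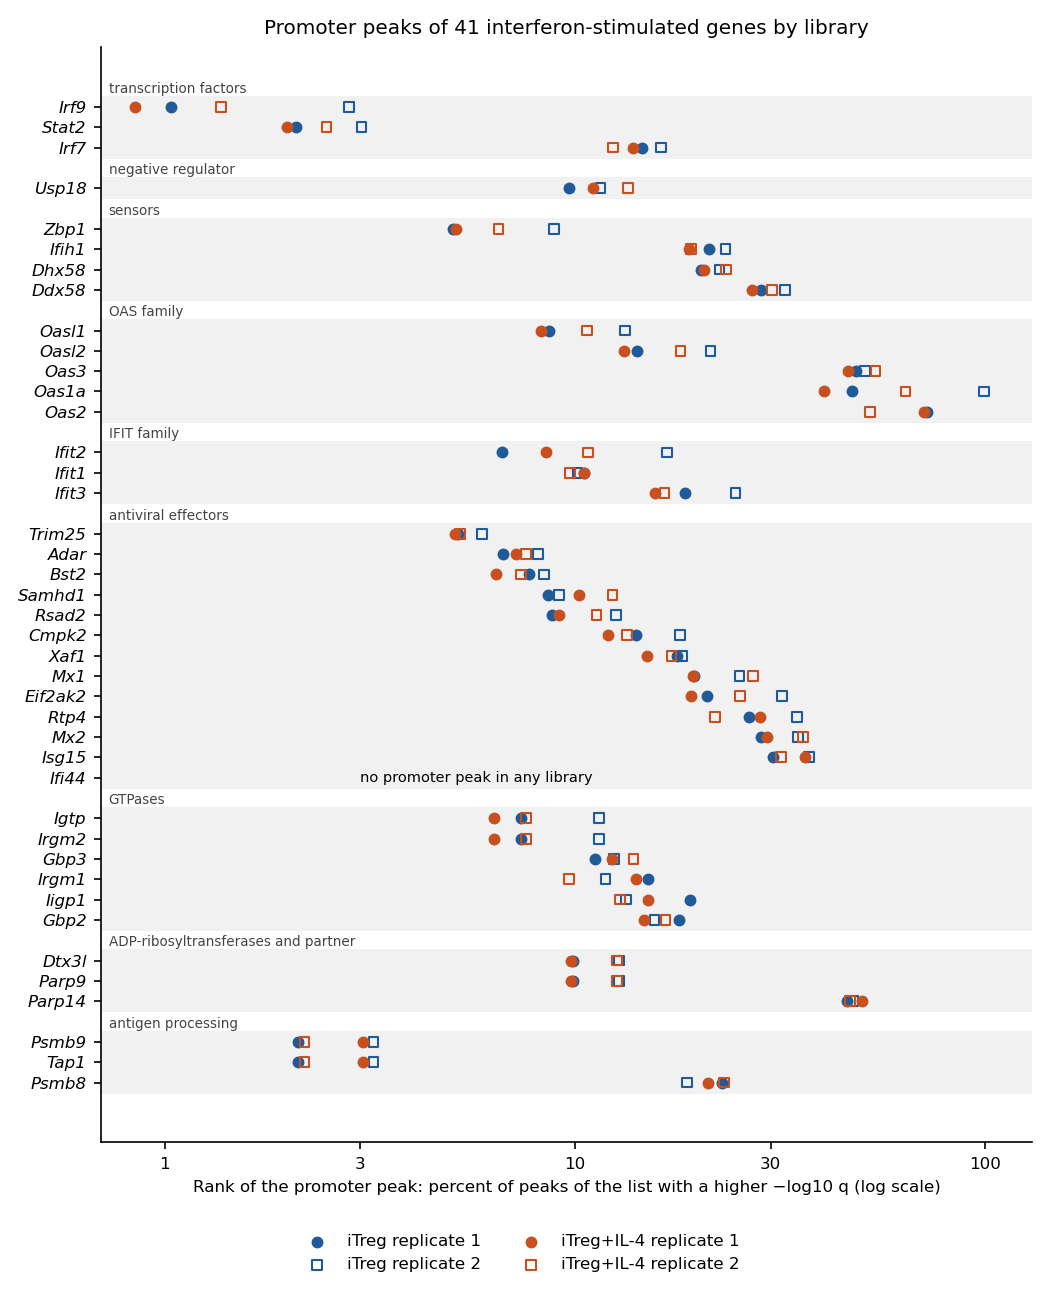
Rank of the best promoter peak (percent of peaks of the list with a higher −log10 q, log scale, stronger peaks to the left) of each of the 41 genes in each library, grouped by role. Irf9, Stat2, Tap1 and Psmb9 lie to the left with median ranks of 1.20 to 2.62, Oas1a, Oas2, Oas3 and Parp14 to the right with median ranks of 47.2 to 70.9, and iTreg (blue) and iTreg+IL-4 (orange) points are mixed within most rows.

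The promoters of Irf9 and Stat2 had the lowest median ranks of the 41. Irf9 encodes the DNA-binding subunit of ISGF3. Its promoter peak (chr14:55603691-55604607 in iTreg replicate 1) ranked 1.04 and 2.82 without IL-4 and 0.845 and 1.37 with it. Stat2, which encodes the activating subunit of ISGF3, had ranks of 2.09 and 3.02 without and 1.99 and 2.48 with IL-4. For both genes the best-ranked value was an iTreg+IL-4 library and the ranges of the conditions overlapped. Irf7, the factor that amplifies the production of type I interferon, had ranks of 14.6 and 16.2 without and 13.8 and 12.4 with IL-4, so that both iTreg+IL-4 libraries ranked it higher than either iTreg library.

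The antigen-processing genes divided in the same manner. Tap1 encodes a subunit of the transporter that carries peptides into the endoplasmic reticulum, and Psmb9 a catalytic subunit of the immunoproteasome. Their shared promoter peak (chr17:34186942-34188072 in iTreg replicate 1) ranked 2.11 and 3.23 without IL-4 and 3.05 and 2.19 with it. The promoter of Psmb8, another immunoproteasome subunit encoded beside Tap1, ranked 22.8 and 18.7 without and 21.1 and 23.1 with IL-4. The conditions overlapped at both promoters.

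Among the sensors, Zbp1, which recognises Z-form nucleic acid, had the best ranks, at 5.04 and 8.88 without IL-4 and 5.14 and 6.51 with it. The cytoplasmic RNA sensors Ifih1 (MDA5), Ddx58 (RIG-I) and Dhx58 (LGP2) ranked between 19.0 and 32.5 in the 4 libraries. At Ifih1 the iTreg+IL-4 libraries, with 19.0 and 19.1, both stood above the iTreg libraries, with 21.2 and 23.3. Usp18 encodes the protease that removes ISG15 from proteins and dampens signalling at the type I receptor, and its promoter ranked 9.65 and 11.5 without and 11.1 and 13.4 with IL-4.

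The OAS family, whose members make or resemble makers of oligoadenylates, held the weakest promoter peaks. Oas3 ranked 48.5 and 50.8 without IL-4 and 46.4 and 54.0 with it. Oas1a ranked 47.3 and 99.4 without IL-4 and 40.5 and 63.9 with it. The value of 99.4, from iTreg replicate 2, belonged to a peak with a −log10 q of 1.60 that ended 290 bases short of the start site, while the peaks of the other 3 libraries covered it. All of Oas1a, Oas2 and Oas3 nevertheless held an ISRE core in the promoter window.

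The 2 OAS-like genes had stronger peaks. Oasl2 ranked from 13.2 to 21.4. Oasl1 ranked from 8.28 to 13.2, but that peak lay 772 bases upstream of its start sites, and the peak that covered a start site ranked between 81.8 and 93.7. The median of the median ranks was 49.6 in the OAS family and 10.3 in the IFIT family, whose products bind foreign RNA. Ifit1 varied little, with ranks of 10.5 and 10.1 without and 10.5 and 9.74 with IL-4, though it shares that region with the start of Ifit1bl2.

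Among the antiviral effectors, 12 of 13 had a promoter peak in all libraries, with median ranks from 5.21 in Trim25 to 34.1 in Isg15. Trim25, the ubiquitin ligase that activates RIG-I, ranked 5.18 and 5.92 without and 5.11 and 5.24 with IL-4. Isg15, a ubiquitin-like modifier that takes its name from the group, ranked 30.3 and 37.1 without and 36.4 and 31.8 with IL-4, although its promoter window holds 3 overlapping ISRE matches, all inside a peak in every library. Mx1 and Mx2, dynamin-like GTPases that block viral replication, ranked between 19.4 and 35.9. The Mx1 protein is not functional in C57BL/6 mice, and GENCODE labels Mx2 a polymorphic pseudogene, yet both promoters were open in all 4 libraries.

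Adar and Irgm2 each have start sites far apart, with a promoter peak at either end. Adar encodes the enzyme that edits adenosine in double-stranded RNA. Its best-ranked peak, at 6.67, 8.13, 7.19 and 7.60 in the order iTreg replicates 1 and 2 and iTreg+IL-4 replicates 1 and 2, was centred between 15880 and 15902 bases into the gene record, and the peak at the 5′ end of the record ranked 27.0, 25.7, 29.4 and 21.2. The values given for Irgm2 belong to the start site it shares with Igtp. At its other start sites, where the stretch printed for it lies, the peak ranked 18.1, 19.6, 15.0 and 19.4. The conditions overlapped at all of these peaks when ranked in the full lists.

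The 6 GTPases of the guanylate-binding and immunity-related families all had promoter peaks in every library, with median ranks from 7.49 in Igtp to 16.1 in Gbp2. Igtp ranked 7.39 and 11.4 without and 6.36 and 7.59 with IL-4. Of the ADP-ribosyltransferases, Parp9 and its partner Dtx3l shared a peak over their common promoter that ranked 9.92 and 12.8 without and 9.80 and 12.7 with IL-4. In iTreg+IL-4 replicate 1 that region was called as 2 peaks, of which the better-ranked did not reach a start site. Parp14 stood apart from them with ranks of 46.1 and 47.6 without and 50.0 and 46.9 with IL-4. The conditions overlapped at these genes in the full lists, though not at all of them in lists of equal length, as given with the IL-4 comparison.

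In the full lists, few of these promoters separated the conditions. Both iTreg+IL-4 libraries ranked higher than both iTreg libraries at 6 of 39 genes (15.4%), against 20.0% of the 13161 coding genes with a promoter peak in all libraries. The reverse held at 1 of 39 (2.56%), against 5.61%. These counts depend on the lists, as given after the genes. With 2 libraries against 2, a two-sided exact permutation test cannot give a p below 0.333, which is the value at each of these 7 genes, so none of them can pass a threshold of 0.05.

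The 6 genes were Ifit3, Cmpk2, Ifih1, Irf7, Xaf1 and Bst2. Ifit3 had the largest difference among them, with ranks of 18.5 and 24.6 without (mean 21.6 ± 4.30, SD, n = 2) and 15.7 and 16.5 with IL-4 (16.1 ± 0.615). Cmpk2, a mitochondrial nucleotide kinase gene next to Rsad2, had ranks of 14.1 and 18.1 without and 12.0 and 13.4 with IL-4. Xaf1, an inhibitor of anti-apoptotic proteins, had 17.7 and 18.3 without and 15.0 and 17.2 with IL-4.

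Bst2, which encodes tetherin, the membrane protein that holds budding virus at the cell surface, had ranks of 7.71 and 8.41 without and 6.43 and 7.38 with IL-4. At Xaf1, Bst2, Irf7 and Cmpk2 the nearest libraries of the 2 conditions differed by less than 1 percentage point of rank. The gene on the other side was Samhd1, a phosphohydrolase that depletes the nucleotides needed for reverse transcription. It ranked 8.58 and 9.15 without (8.86 ± 0.406) and 10.2 and 12.3 with IL-4 (11.3 ± 1.48).

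Taking the mean of each condition, 29 of 39 genes (74.4%) had the better mean rank with IL-4, and so did 72.7% of the coding genes. The median difference in mean rank, with IL-4 minus without, was -0.817 percentage points for these genes and -0.665 for all coding genes. Both medians took the other sign once every list was cut to its 56645 peaks with the highest −log10 q, at 0.108 and 0.0989. In those lists of equal length 4 of 39 genes ranked higher with IL-4 in both libraries (10.3%, against 12.6% of coding genes) and 10 ranked lower (25.6%, against 12.5%). The 4 were Cmpk2, Ifit3, Igtp and Irgm2, and the 10 were Adar, Dhx58, Dtx3l, Gbp3, Mx1, Mx2, Parp9, Rsad2, Samhd1 and Usp18, where Igtp and Irgm2, and Parp9 and Dtx3l, are each 1 shared peak counted for both genes. Igtp and Irgm2 also ranked higher with IL-4 by height and among promoter peaks alone, and Adar, Gbp3, Samhd1 and Usp18 ranked lower among promoter peaks alone. Of the 7 genes named, Ifit3 and Cmpk2 (higher) and Samhd1 (lower) still did not overlap in the lists of equal length, and Ifih1, Irf7, Xaf1 and Bst2 did.

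Leaving out a library moved the counts among the interferon-stimulated genes and among coding genes alike. Without iTreg replicate 2, the shortest list, the median difference was 0.513, and 0.163 for coding genes, both of the other sign. The genes ranked higher with IL-4 were then 27.5% against 24.5% of coding genes, and those ranked lower 32.5% against 34.2%. Without iTreg replicate 1 the shares were 66.7% against 68.6% and 5.13% against 10.5%. Without iTreg+IL-4 replicate 1 they were 25.6% against 33.3% and 20.5% against 16.2%, and without iTreg+IL-4 replicate 2 they were 53.8% against 47.5% and 5.13% against 16.4%. Which of the 2 shares was larger thus changed with the libraries used.

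**Figure D4:**
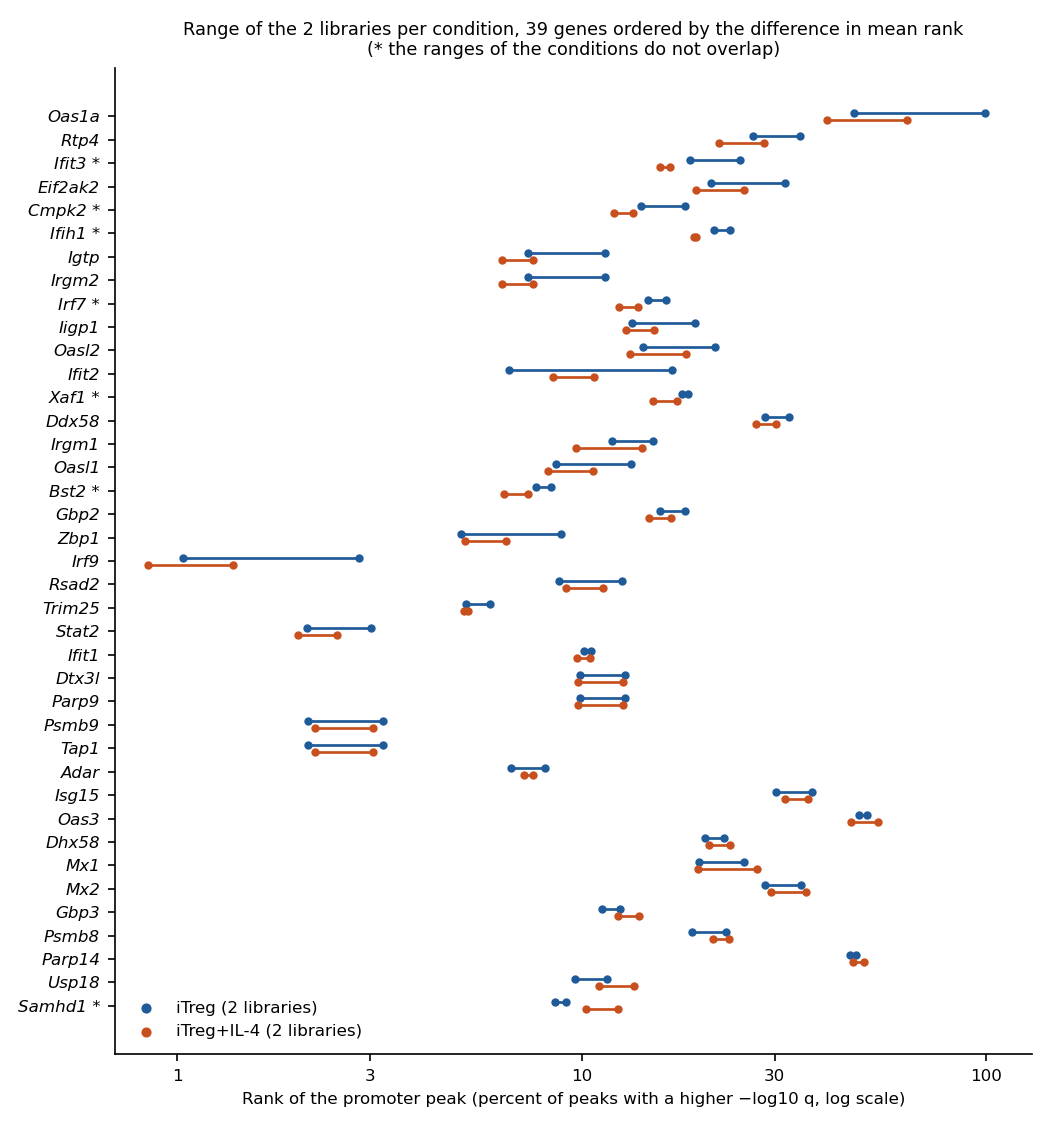
Rank of the promoter peak (log scale, stronger to the left) of the 39 genes called in all libraries, with 1 line for each condition joining its 2 libraries, ordered by the difference in mean rank, from Oas1a (top, stronger mean rank with IL-4) to Samhd1 (bottom, weaker mean rank with IL-4). Ranks are within full lists of unequal length. Stars mark the 7 genes at which the lines do not overlap, 6 with IL-4 to the left and Samhd1 with IL-4 to the right.

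Oas1a had the largest difference in mean rank, at 73.3 ± 36.8 without and 52.2 ± 16.6 with IL-4, but its ranges overlapped and the value rests on the weak peak of iTreg replicate 2. Rtp4, a chaperone of membrane receptors, followed with 26.6 and 34.7 without and 28.3 and 21.9 with IL-4. The GENCODE record of Rtp4 spans 93932 bases, its best-ranked peak lay near the 3′-ward start sites, and the start of Masp1 lies within 1 kb of one of its start sites. With the 5′ end of the record alone, Rtp4 had no promoter peak in at least 1 library.

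Inside the gene bodies, more than 1 kb from any annotated start site, 24 of the 41 genes (58.5%) had at least 1 called region, against 45.0% of coding genes. The 24 genes held 46 distinct regions, of which 34 lay in introns, 2 in coding exons, 9 in non-coding parts of exons and 1 in both a coding exon of Igtp and an intron of Irgm2. Of these, 32 and 27 were called in the iTreg libraries and 36 and 31 in the iTreg+IL-4 libraries (29.5 ± 3.54 and 33.5 ± 3.54, SD, n = 2), 21 were called in all 4 libraries and 13 in only 1. The region counts of the 2 conditions overlapped.

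A few body regions were stronger than the promoter of the same gene. In Oas3 an intronic region 1897 bases from the 5′ end ranked 4.66, 12.7, 5.87 and 8.98 in the order iTreg replicates 1 and 2 and iTreg+IL-4 replicates 1 and 2, while its promoter ranked between 46.4 and 54.0. In Parp14 an intronic region 2131 bases from the 5′ end ranked 13.7, 21.8, 15.0 and 17.4, while its promoter ranked between 46.1 and 50.0. In Oas2 an intronic region ranked between 30.4 and 45.3 in all 4 libraries, including the one in which the promoter was not called.

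Samhd1 held 3 intronic regions in all 4 libraries. The strongest lay 13128 bases from the 5′ end and ranked 8.76, 12.0, 6.38 and 7.96, so that at this region both iTreg+IL-4 libraries stood above both iTreg libraries, as they did at the other two in the full lists. Over the 21 regions called in every library, 6 had this order (28.6%, against 20.6% of such regions of coding genes) and 0 the reverse (against 4.21%). The 6 were the 3 of Samhd1 and 1 each of Ddx58, Ifih1 and Rtp4. Ranks in the full lists shift with the length of the list, and in lists of equal length 3 of 19 regions had this order (15.8%, against 15.7%), 1 each of Samhd1, Adar and Oasl2, and 1 in Usp18 the reverse (5.26%, against 11.8%). The counts also turned on single libraries, with 16 of 22 regions higher without iTreg replicate 1 (72.7%, against 74.0% of such regions of coding genes), 11 of 23 higher without iTreg+IL-4 replicate 2 (47.8%, against 49.5%) and 8 of 23 lower without iTreg replicate 2 (34.8%, against 36.4%).

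Ifit3 had a region over its coding exon that ranked 14.7, 21.8, 17.1 and 17.4, and Adar an intronic region at 21.2, 28.9, 18.8 and 22.8. Ifih1, the gene with the most body regions, held 7 of them, of which 3 were called in every library, none ranked better than 31.8.

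**Figure D5:**
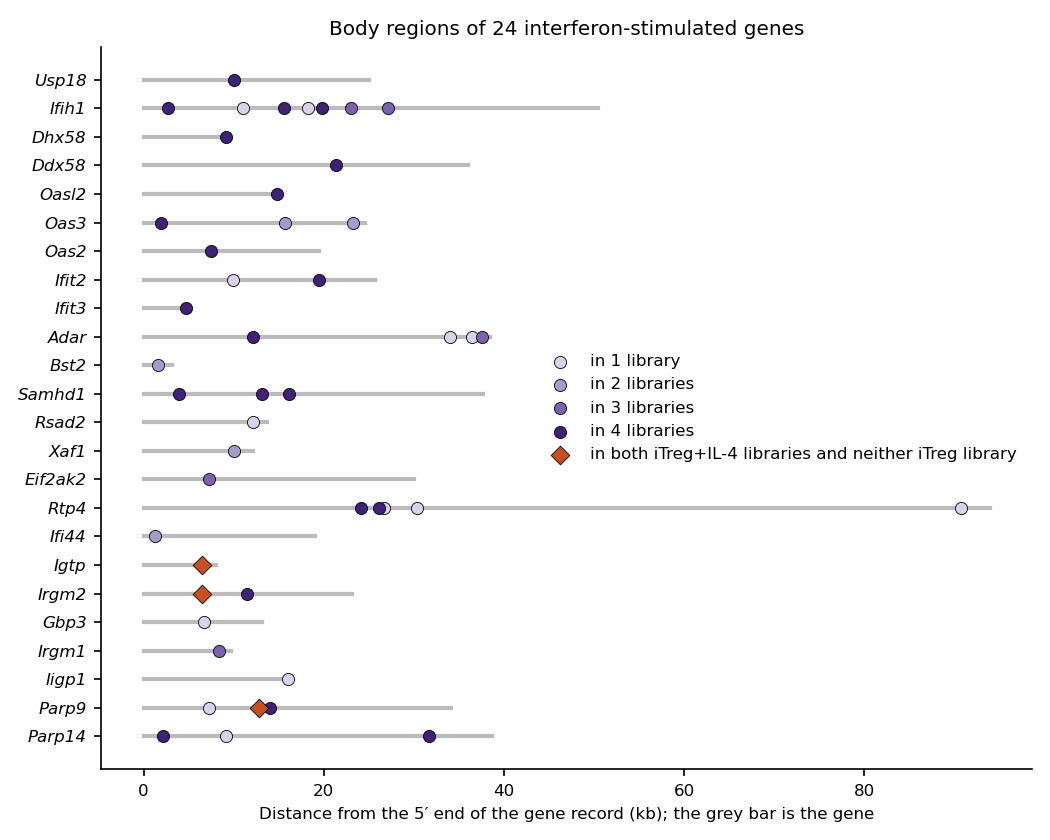
Regions called inside the bodies of 24 interferon-stimulated genes, as the distance of the region's centre from the 5′ end of the gene record (kb), with grey bars for the gene records and darker circles for regions called in more libraries. Orange diamonds mark the region of Igtp, which also lies inside Irgm2, and that of Parp9, each present in both libraries with IL-4 and in neither without.

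A region present in both libraries with IL-4 and in neither without occurred in 3 of the 24 genes, beside 10.7% of the 9910 coding genes with a body region. The 3 genes hold 2 separate regions. One (chr11:58205923-58206263) covers the coding exon of Igtp and an intron of Irgm2 and ranked 86.6 and 77.6 with IL-4. The other (chr16:35951025-35951505), in an intron of Parp9, ranked 90.0 and 95.8. Both regions were thus among the weak peaks of their lists, and in lists shortened to the same length 0 of 23 genes had such a region, beside 7.77% of coding genes with a body region. The reverse pattern, which 2.58% of coding genes showed, occurred in none of the 24. Without iTreg replicate 1 the 3 genes became 5 (20.8%, against 38.5% of coding genes with a body region), and without iTreg+IL-4 replicate 1 or 2 they became 6 (26.1%, against 24.4% and 33.6%). The reverse pattern appeared in 2 genes without iTreg replicate 1 (8.33%, against 11.0%), 3 without iTreg replicate 2 (13.0%, against 27.2%) and 2 without iTreg+IL-4 replicate 1 (8.70%, against 11.0%).

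The other genes of the interferon pathway, 27 in all, had a promoter peak in all 4 libraries in 24 cases (88.9%), against 59.8% of all coding genes. Among the ligands, Ifnb1 had no promoter peak in any library, Ifna4 had one in iTreg+IL-4 replicate 1 alone (rank 75.1), Ifna2 had weak peaks with ranks from 38.8 to 63.7, and Ifng, the interferon that T cells themselves make, ranked between 17.3 and 25.1. All 4 receptor chains had promoter peaks throughout. Ifnar1 ranked between 1.49 and 3.13 and Ifngr1 between 2.05 and 2.89, while Ifnar2 and Ifngr2 ranked between 20.7 and 35.8.

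The kinases Jak1, Jak2 and Tyk2, the factors Irf1, Irf2, Irf3 and Irf8 and the inhibitors Socs1, Socs3 and Ptpn6 were likewise called in all 4 libraries. Of the 8 genes that act upstream in sensing, 7 were called throughout. Tlr3, which detects double-stranded RNA in endosomes, was the exception, with weak peaks in 3 libraries (ranks 80.2 to 88.1). Both iTreg+IL-4 libraries ranked higher than both iTreg libraries at 4 of the 24 genes (16.7%, among them Tlr7, Tlr9 and Myd88) and lower at 3 (12.5%, Ifngr1, Irf8 and Socs1), against 20.0% and 5.61% of coding genes. These counts are from the full lists and were not recomputed in lists of equal length, where 12.6% and 12.5% of coding genes ranked higher and lower. Myd88, the adaptor of most Toll-like receptors, had ranks of 1.96 and 3.09 without and 1.70 and 1.89 with IL-4, and Socs1, a feedback inhibitor of JAK kinases, had 3.33 and 2.40 without and 4.75 and 3.96 with IL-4.

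Peaks with and without an ISRE core can be set side by side over the 37 distinct promoter regions, each counted once. In 28 regions the best-ranked peak of at least 1 library held a match, and their median ranks had a median of 16.1, from 2.29 at Stat2 to 70.9 at Oas2. In the other 9 the median was 9.66, from 1.20 at Irf9 to 22.4 at Mx1, so that the ranges overlapped widely. The 9 were those of Adar, Cmpk2, Ifit2, Irf9, Mx1, Oasl1, Samhd1, Trim25 and Xaf1. Counted by the fixed window instead, the genes without a match were Adar, Cmpk2, Dtx3l, Ifi44, Ifit2, Irf9, Mx1, Oasl1, Psmb9, Samhd1, Stat2, Trim25 and Xaf1. Irf9, the strongest promoter of the group, was among them, which says only that these letters were not found there.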

How the data were processed

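ATAC-seq libraries of splenic CD4+ T cells were sequenced by the authors on the BGISEQ-500 platform, mapped to mm10 with Bowtie2 2.2.5 and searched for peaks with MACS2 2.1.2 in each library, and bedtools 2.16.2 is also named in the submitters' processing notes. Handling of duplicate and mitochondrial reads and of the transposase offset is not given in the sources used here. The deposited lists have no header, and their values were read, from their range (1.31 at the lowest in each list) and the caller's usual output, as a −log10 q-value followed by a pileup height (signal), neither scaled between libraries. Every rank rests on that reading. Read totals were not known, and calls carry no interval.

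Gene records and start sites came from GENCODE vM21 and sequence from RefSeq GRCm38, in which 0 peaks passed a chromosome end. Peaks off the assembled chromosomes (418 in all lists) met no gene record used here. A promoter peak shared at least 1 base with the 1 kb on either side of a start site, and the best-ranked one was used. Body regions were merged peaks inside a gene and outside all such windows. Peaks were counted with Python 3.11.15, numpy 2.4.6 and pandas 2.3.3, and sequence was read with pysam 0.24.0 and samtools 1.23.1. Scripts were tested on simulated lists. The 41 genes, the pathway and marker lists and the tests were chosen with earlier results of these data known. Values in every library were printed by rule for genes whose calls differed or whose conditions did not overlap, the 5 best-ranked and genes with a body region in 1 condition. Those of other genes named for their role or their place in the order were chosen after the values were seen. Values of some listed genes are not reported here. Cgas was matched to the older symbol Mb21d1 through RefSeq. Alternatives changed the window, the ranking, the lists or the libraries used. The p-value named, 0.333, is the smallest that a two-sided exact permutation test of these libraries can give, and it does not measure their spread. The study calls the libraries biologically independent and pooled.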

Additional observations from a re-analysis of the deposited data

How the results depend on the processing

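Of 99 recomputed values, 63 stayed within 1.5 times the reported count, or within 1 SD between replicates for the differences. The count of genes with a promoter peak in all libraries (38 to 40 except 37 in the upper 50% of each list) and the counts with an ISRE core (20 to 32, the 20 from the 5′ end alone, an alternative added after seeing the data) were among these. Leaving out each library in turn gave 0 to 1 genes with a promoter peak only with IL-4 (Oas2 without iTreg replicate 1), 0 to 1 for the mean difference in genes called (0.5 as reported, and 0 in the upper 50% of each list), 10 to 26 genes ranked higher with IL-4, 2 to 13 ranked lower, -1.71 to 0.513 for the median rank difference, 4 to 6 genes with a body region only with IL-4 and 0 to 3 with one only without. Distinct body regions ranked higher with IL-4 numbered 7 to 16 and lower 1 to 8 (6 and 0 in all libraries), alternatives added after seeing the data. With 3 libraries the pattern is met more easily, also among coding genes. Genes with a body region only with IL-4 numbered 1 of 13 (Ddx58, 7.69% against 6.83% of coding genes) in the upper 50% of each list and 0 of 23 (against 7.77%) in lists cut to 56645 peaks. Ranked among promoter peaks alone, 4 of 39 genes ranked lower with IL-4 (10.3%, against 9.06%). Ranked within lists of equal length, an alternative added after seeing the data, 10 ranked lower and the median rank difference was 0.108.

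The replicate numbers of the labels name samples and are not stated to mark a shared mouse or day. With the replicate number as a block, comparing each iTreg+IL-4 library with the iTreg library of the same number, 21 of 39 genes ranked higher with IL-4 in both pairs (53.8%, against 42.2% of coding genes) and 5 lower (12.8%, against 11.8%). Deviations of same-numbered libraries from their group means correlated at 0.42 over 13161 coding promoters, as a description. Presence in a list depends on sequencing depth, which the lists do not give, so a missing peak is not shown to be closed chromatin.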

Other observations

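Relatives of these genes that were not among the 41, chosen by symbol after the values were seen, differed by family. Of 8 further guanylate-binding protein genes, 7 had a promoter peak in all 4 libraries, with Gbp10 ranked between 9.23 and 12.5, and Gbp2b had none in any library. Both Tgtp1 and Tgtp2, further GTPases of the immunity-related family, were called throughout, the latter with ranks from 21.8 to 33.1. The 3 further Ifit genes (Ifit1bl1, Ifit1bl2 and Ifit3b) were called in all 4 libraries. Of the 6 further Oas genes, Oas1c was called throughout with ranks from 10.0 to 13.3, better than those of Oas1a, Oas2 and Oas3, and Oas1d, Oas1e, Oas1f, Oas1g and Oas1h had no promoter peak in any library.

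In the Ifi200 cluster of DNA-binding proteins, 9 of 12 genes had a promoter peak in all 4 libraries. At Ifi203 and Mndal, which share a peak, ranks were 15.0 and 16.5 without and 9.58 and 13.2 with IL-4, and at Ifi213 they were 11.5 and 14.0 without and 9.06 and 9.23 with IL-4. Of the 31 relatives, 22 (71.0%) had a promoter peak in all 4 libraries, against 59.8% of coding genes. Both iTreg+IL-4 libraries ranked higher than both iTreg libraries at 9 of these 22 (40.9%) and lower at 1 (4.55%, Gbp5), against 20.0% and 5.61% of coding genes. Gbp4, Gbp8 and Gbp9 share regions as well, so the 9 genes rest on fewer separate regions. At Oas1c and Gbp6 the nearest ranks without and with IL-4 were 10.53 and 10.45, and 24.70 and 24.66. These counts are from the full lists and were not recomputed in lists of equal length or with a library left out. In lists of equal length 12.6% of coding genes ranked higher and 12.5% lower. Many of these genes are near-identical copies, among which mapped reads can be split or lost, and how multiply mapped reads were treated is not given in the sources used here.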
